A study of Mus musculus with 2 samples.

Results

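Dlk1, Meg3, Igf2, H19, Peg3, Mest, Plagl1, Cdkn1c, Grb10 and Igf2r are 10 imprinted genes that act on growth, and all 10 were among the 27995 genes listed in both single-cell libraries. They were taken by name, after earlier results of these data had shown a large difference of Dlk1 between the fat depots, and were measured as unique molecular identifiers (UMIs, 1 per captured RNA molecule) per 1000000 UMIs of the same cells, written CPM. The cells came from the stromal vascular fraction, the non-fat-cell fraction of adipose tissue, of wild-type C57BL/6N mice of 8 to 12 weeks, pooled per depot, and were grown in high-glucose DMEM to 80% confluency. One library was made from inguinal white fat (iWAT) and 1 from interscapular brown fat (iBAT). Each library pooled 4 culture treatments of 48 h, namely untreated, FGF1, FGF2 and FGF8 at 5.5 nM, with 10000 cells loaded per treatment. No sample tag was among the listed features, so no treatment could be compared and every value is a mean over the treatments. The treatments and the age are those of the sample labels, whereas the series' design text and the study's methods name fewer treatments and the methods give a narrower age range.

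With 1 library per depot there is no replicate, and no test of a depot difference is given. The 95% intervals below are exact Poisson, exact binomial or exact conditional ratio intervals, and they cover counting error only. The iWAT library held 503611913 UMIs and kept 29744 cells with a median of 16204 UMIs, and the iBAT library held 815235820 and kept 28215 cells with a median of 27235. The depots also differed in sex-linked RNA: Xist, the RNA of the inactive X chromosome, was at 345 CPM in iWAT and 0.0505 in iBAT, and the Y-linked Ddx3y was at 1.20 and 81.9. Depot, sex-linked expression, depth and library therefore cannot be told apart. Pdgfra-positive cells, defined as cells with a Pdgfra UMI that passed no gate for another lineage, made up 16842 cells in iWAT (56.6%) and 25256 in iBAT (89.5%). In them 8 of 8 stromal markers in iWAT and 7 of 8 in iBAT reached 10 CPM, while the 8 adipocyte markers summed to 0.744 and 9.73. Most stromal markers were thus present and adipocyte markers were near 0. Pdgfra is itself among the 8 stromal markers and was bound to be present, since it defined these cells. The iWAT library also held 4229 epithelial-gated cells (14.2%), and the iBAT library 769 Schwann-gated (2.73%), 283 skeletal muscle-gated (1.00%), 279 immune-gated (0.989%) and 222 endothelial-gated cells (0.787%). A further 8361 iWAT cells (28.1%) and 1358 iBAT cells (4.81%) had neither Pdgfra nor a gate. Their stromal markers summed to 26219 CPM in iWAT and 16478 in iBAT, against 29227 and 13066 in Pdgfra-positive cells. The Pdgfra-positive percentages are therefore not shares of all stromal cells. Cells were not sorted, and the gates rest on 4 or more markers of a lineage.

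An imprinted gene is read only or mainly from 1 of the parental chromosomes in at least some tissues. Dlk1 encodes a transmembrane protein with EGF-like repeats that can be shed as a soluble factor and is the classic preadipocyte marker, known to hold back adipogenesis. Meg3 is the maternally expressed long non-coding RNA of the same cluster. Igf2 is a fetal growth factor, Igf2r the receptor that clears it, and H19 the non-coding RNA beside Igf2. Grb10 is an adaptor that dampens insulin and IGF receptor signalling, and Cdkn1c encodes the cell cycle inhibitor p57. Peg3 and Plagl1 encode zinc finger proteins, and Mest a protein of the hydrolase fold linked to fat mass. UMIs here do not separate the parental copies, so none of the values below is a measure of imprinting.

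On GRCm39, the build that mm39 names, Dlk1 lies at chr12:109418749-109429262 on the plus strand, and Meg3 follows 77614 bases downstream at chr12:109506877-109538165 on the same strand. Rian and Mirg, further non-coding RNAs of the cluster, and the deiodinase gene Dio3 lie beyond it. H19 (chr7:142129262-142133957) and Igf2 (chr7:142204503-142220694), both on the minus strand, are 70545 bases apart. Cdkn1c (chr7:143012069-143014806) and Peg3 (chr7:6706882-6733468) lie elsewhere on chromosome 7, also on the minus strand. Mest lies at chr6:30723546-30752058 and Plagl1 at chr10:12936248-13007438, both on the plus strand, while Grb10 (chr11:11880498-11988683) and Igf2r (chr17:12901293-12988614) are on the minus strand. The gene spans are those of GENCODE M39.

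The windows of 250 bases before the outermost annotated starts of Dlk1 and Meg3 are printed because these neighbours on chromosome 12 differed in opposite directions between the depots. The difference of Meg3 was under 2-fold. Capitals mark TGACGTCA, the cAMP response element, read on both strands (the motif is its own reverse complement).
Dlk1 (chr12:109418499-109418748, GRCm39, plus strand): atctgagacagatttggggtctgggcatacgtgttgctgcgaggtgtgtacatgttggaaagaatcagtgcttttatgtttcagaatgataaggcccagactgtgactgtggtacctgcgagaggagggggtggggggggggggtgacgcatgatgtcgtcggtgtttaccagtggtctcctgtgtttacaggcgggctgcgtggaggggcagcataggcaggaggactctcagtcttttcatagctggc
Meg3 (chr12:109506627-109506876, GRCm39, plus strand): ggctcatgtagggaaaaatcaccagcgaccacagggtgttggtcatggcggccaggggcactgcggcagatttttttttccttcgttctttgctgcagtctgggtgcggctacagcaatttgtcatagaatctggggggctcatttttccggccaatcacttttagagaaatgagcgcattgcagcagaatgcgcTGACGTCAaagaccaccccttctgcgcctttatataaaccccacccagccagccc

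TGACGTCA was found in the windows of 2 members, Meg3 and Peg3, and in 1.05% of the 54652 windows of the same length before protein-coding and long non-coding genes. The other motif searched, GGGGCCCC, was found in the window of 1 member, Peg3, and in 0.692% of all windows. The Dlk1 window held 8 CG pairs and the Meg3 window 10, against a median of 4 over all windows. The largest numbers among the members were 32 before Cdkn1c and 26 before Igf2r, and the window before the outermost start of Igf2 held 0. A match of letters is a description, and nothing was measured on these windows.

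Of the 10 members, 4 also host microRNAs in the RefSeq tables (GRCm38.p6). They are shown because H19, Igf2 and Mest were the hosts far higher in skeletal muscle-gated cells and Meg3 was the most abundant member. Polyadenylated RNA was counted here, so the microRNAs themselves were not measured. Capitals mark the seed, bases 2 to 8.
mmu-miR-675-5p (in H19): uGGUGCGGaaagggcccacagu
mmu-miR-675-3p (in H19): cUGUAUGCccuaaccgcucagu
mmu-miR-335-5p (in Mest): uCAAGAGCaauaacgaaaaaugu
mmu-miR-335-3p (in Mest): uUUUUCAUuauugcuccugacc
mmu-miR-1906 (in Meg3): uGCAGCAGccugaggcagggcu
mmu-miR-770-5p (in Meg3): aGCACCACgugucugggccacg
mmu-miR-770-3p (in Meg3): cGUGGGCCugacguggagcugg
mmu-miR-483-5p (in Igf2): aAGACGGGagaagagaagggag
mmu-miR-483-3p (in Igf2): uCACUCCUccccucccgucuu

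The seeds of the 9 mature microRNAs hosted by members were 9 different sequences.

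Dlk1 was the member that separated the depots. In Pdgfra-positive cells it stood at 1.42 CPM in iWAT (1.29 to 1.56, 449 UMIs) and at 64.5 in iBAT (63.9 to 65.1, 46822 UMIs). The iBAT level was 45.4-fold higher (41.4 to 49.9), a log2 ratio of 5.50, which placed Dlk1 15th from the iBAT end of the 8961 genes that reached 10 CPM in at least 1 library. Its ratio was chosen for its size and is given as a description. Thinned to 10000 UMIs per cell, 23.4% of the iBAT cells (5903 of 25256) and 1.39% of the iWAT cells (210 of 15159) held a Dlk1 UMI.

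Among the 10 members, 3 were 2-fold or more higher in iBAT, against 3.72% of all genes tested, and 1 was 2-fold or more higher in iWAT, against 4.32%. Only 7 members passed the floor of 10 CPM that the background percentages use. Of these 7, Dlk1 alone was 2-fold or more higher in iBAT and 0 were so in iWAT. Dlk1 was known to differ when the set was taken, and it passed the floor only through iBAT. Its call is therefore not a result about the set, and no other member past the floor was 2-fold or more apart. The median log2 ratio of iBAT over iWAT of the 7 was -0.28, against 0.05 over all genes tested.

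Meg3 did not move with its neighbour. Its level was 325 CPM in iWAT and 194 in iBAT, 1.67-fold higher in iWAT (1.66 to 1.68). The other non-coding RNAs of the cluster were on the same side, with Rian at 313 and 225 and Mirg at 27.3 and 15.1. Dio3, which encodes the enzyme that inactivates thyroid hormone, lies 707336 bases beyond Meg3 and was at 3.53 in iWAT and 23.8 in iBAT, 6.76-fold higher in iBAT (6.36 to 7.18). Rtl1, a retrotransposon-derived gene between them, was near 0 in both at 0.108 and 0.0992. The protein-coding Dlk1 and Dio3 were thus higher in the iBAT library, and the non-coding RNAs between them in the iWAT library. Meg3 (1.67-fold), Rian (1.39-fold) and Mirg (1.81-fold) were each under the 2-fold that counts as a difference here.

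**Figure D1:**
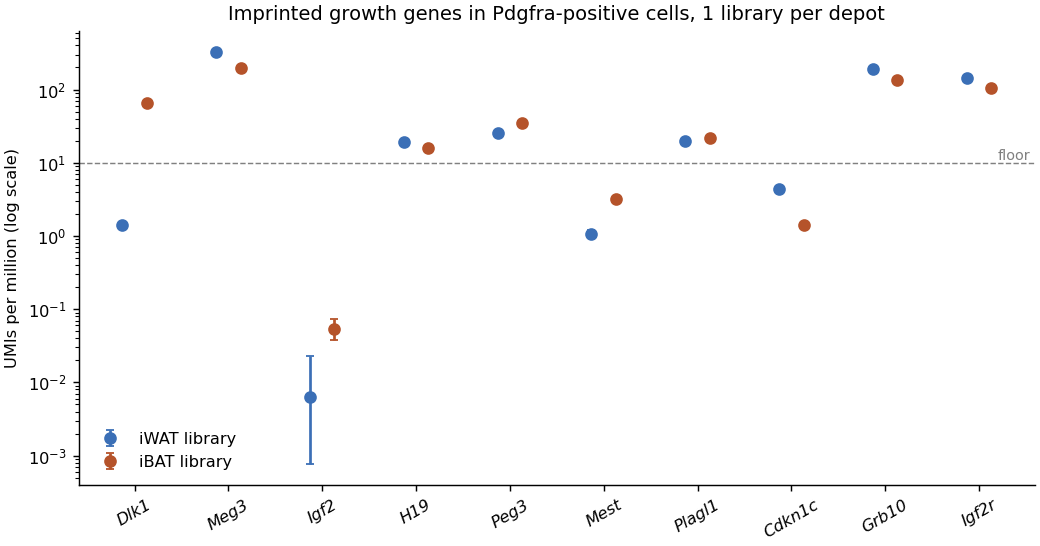
CPM (log axis) of the 10 members in Pdgfra-positive cells of the iWAT (blue) and iBAT (brown) libraries, with 95% exact Poisson intervals, mostly smaller than the points, and the floor of 10 as a dashed line. Dlk1 rises from 1.42 to 64.5, Meg3, Grb10 and Igf2r sit above 100 in both libraries, and Igf2 lies below 0.1 in both.

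The growth factor itself was almost not seen. Igf2 had 2 UMIs in Pdgfra-positive iWAT cells and 39 in iBAT, 0.00633 and 0.0537 CPM, an 8.49-fold ratio whose interval ran from 2.20 to 72.5. Its clearance receptor Igf2r was abundant, at 142 in iWAT and 106 in iBAT (1.33-fold higher in iWAT, 1.32 to 1.35). Airn, the antisense RNA that starts within Igf2r, was at 41.4 and 22.9, both uncertain where the genes overlap and the counting strand is unknown. Grb10 was at 191 in iWAT and 134 in iBAT, 1.42-fold higher in iWAT (1.41 to 1.44). H19 was at 19.1 and 15.7, 1.22-fold higher in iWAT (1.18 to 1.26).

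The zinc finger genes were close between depots. Peg3 was at 25.6 in iWAT and 34.4 in iBAT, 1.34-fold higher in iBAT (1.31 to 1.38), and Plagl1 was at 21.6 in iBAT, 1.08-fold the iWAT level (1.05 to 1.11). Mest and Cdkn1c were below the floor in both libraries. Mest was at 1.07 in iWAT and 3.20 in iBAT, 3.00-fold (2.68 to 3.38), and Cdkn1c at 4.36 and 1.43, 3.05-fold higher in iWAT (2.81 to 3.31).

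Other genes of the same pathways are given as whole lists. Of 58 further genes taken as imprinted, whose imprinting in these cells was not measured, 56 were listed in both libraries. The floor was passed by 30, of which 3 were 2-fold or more higher in iBAT, 3 in iWAT and 24 under 2-fold, with a median log2 ratio of 0.03. Those higher in iBAT were Dio3, Peg10 (18.5 and 39.2 CPM in iWAT and iBAT), a retrotransposon-derived gene, and Peg13 (6.07 and 13.2). Those higher in iWAT were Tfpi2, a protease inhibitor (213 and 56.4), Slc38a4, an amino acid transporter (44.4 and 15.4), and the serotonin receptor gene Htr2a (69.2 and 20.6). Gnas, the imprinted G protein alpha subunit gene and the highest of the list, was at 2151 and 2172. Cd81 (369 and 333), Dcn (221 and 113), H13 (133 and 163), Ube3a (127 and 132), Nap1l4 (124 and 106), Ndn (72.2 and 110) and Sgce (67.0 and 98.9) followed, all under 2-fold.

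Of 15 genes around DLK1 and Notch, 9 passed the floor, 2 of them 2-fold or more higher in iBAT and 1 in iWAT. Sox9, a transcription factor that DLK1 is known to act on in preadipocytes, was at 27.4 in iWAT and 159 in iBAT, 5.79-fold higher (5.67 to 5.92). The receptor gene Notch3 was at 6.87 and 16.2, and the ligand gene Jag1 at 38.9 and 15.9. Notch1 (15.3 and 18.9), Notch2 (39.7 and 55.5), Hes1, a Notch target (191 and 202), the sheddase gene Adam17 (50.3 and 63.8), Klf2 (41.2 and 40.4) and Fn1, fibronectin (1503 and 1627), were under 2-fold, and the Notch target gene Heyl was below the floor at 8.86 and 5.54.

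Of 15 IGF signalling genes, 13 passed the floor, 1 of them 2-fold or more higher in iBAT and 1 in iWAT, with a median log2 ratio of 0.00. Igfbp4, a binding protein that sequesters IGFs, was at 77.6 in iWAT and 773 in iBAT, 9.96-fold higher (9.83 to 10.1). Igf2bp1, an RNA-binding protein of Igf2 mRNA, was at 13.2 and 5.29. The ligand gene Igf1 (12.6 and 21.5), the receptor gene Igf1r (73.2 and 81.5), the receptor substrate gene Irs1 (43.0 and 43.1) and the RNA-binding protein genes Igf2bp2 (124 and 92.9) and Igf2bp3 (32.3 and 49.8) were under 2-fold. So were the binding protein genes Igfbp7 (1705 and 2080), Igfbp5 (126 and 93.5), Igfbp6 (86.3 and 128) and Igfbp3 (28.5 and 15.5). Of 11 cell cycle genes, 10 were under 2-fold, and the cyclin gene Ccnd1 was higher in iBAT at 120 and 408. The proliferation genes were Mki67 (107 and 101), Top2a (185 and 235), Cdk1 (202 and 247), Ccnb1 (80.8 and 126), Birc5 (152 and 217) and Ube2c (272 and 313). The cyclin gene Ccnd2 was at 827 and 742, and the cell cycle inhibitor genes were Cdkn1a (346 and 308), Cdkn1b (91.1 and 86.5) and Cdkn2a (29.7 and 28.8).

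Of 15 genes of stromal state, 12 passed the floor, with 4 of them 2-fold or more higher in iBAT, 3 in iWAT and a median log2 ratio of -0.08. Those higher in iBAT were Mgp, matrix Gla protein (29.9 in iWAT and 594 in iBAT), and the adipogenic genes Cebpa (10.6 and 70.7), Pparg (10.9 and 31.0) and Fabp4 (43.9 and 109). Those higher in iWAT were Dpp4, a marker of early progenitors (23.4 and 2.17), the chemokine gene Cxcl14 (1058 and 354) and the interferon-induced Isg15 (185 and 13.5). Acta2 (2647 and 2028), Fgf2 (291 and 192), Cebpb (237 and 278), Gdf10 (17.6 and 20.9) and Cd55 (13.6 and 9.21) were under 2-fold.

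Across the lineages of the iBAT library, Dlk1 was highest in Pdgfra-positive cells at 64.5 CPM, and these cells held 95.8% of its UMIs. They made up 89.5% of the kept iBAT cells and held 725797302 of the 791392741 kept UMIs of all genes. Cells with neither Pdgfra nor a gate followed at 39.5 (37.3 to 41.8). Skeletal muscle-gated cells at 29.5 (25.4 to 34.1) and Schwann-gated cells at 27.5 (24.9 to 30.3) came next, with overlapping intervals. Endothelial-gated cells at 21.0 (17.3 to 25.2), immune-gated cells at 17.3 (14.5 to 20.6) and mural-gated cells at 13.3 (6.88 to 23.3) were lowest and overlapped each other. Without called doublets the endothelial-gated level fell below 17.3, the lower end of its interval.

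Dlk1 in cells outside the stroma was set beside other stromal RNA. Immune-gated iBAT cells, a lineage that should lack these genes, held Dlk1 at 0.269 of the Pdgfra-positive level (0.224 to 0.320), Pdgfra at 0.299, Col1a1 at 0.336, Col1a2 at 0.343 and Dcn at 0.449. Thinned, 10.4% of immune-gated cells had a Dlk1 UMI against 23.4% of Pdgfra-positive cells, with median depths of 24900 and 27863 UMIs before thinning. Of the immune-gated iBAT cells, 49.5% held a Pdgfra UMI and 8.96% were called doublets, and the source of their Dlk1 UMIs was not tested. In skeletal muscle-gated cells Dlk1 stood at 0.457 of the Pdgfra-positive level (0.393 to 0.528), while Pdgfra was at 0.309 (0.284 to 0.336), Col1a1 at 0.262 and Dcn at 0.314. In iWAT, Dlk1 was at 0.334 in epithelial-gated cells and had 0 UMIs in 169 immune-gated cells, which allows up to 1.33 CPM by a floor of 3 counts and 1.64 by the exact Poisson limit, so a difference from the 1.42 of Pdgfra-positive cells was not detectable at this depth.

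The iBAT skeletal muscle-gated cells, chosen by 10 markers such as Myod1 and Myog that hold no member, carried most of the library's RNA for several members. H19 reached 8356 CPM in these 283 cells (8285 to 8428), 532-fold above Pdgfra-positive cells (522 to 543), and 79.8% of all its UMIs in the library. Cdkn1c was at 461, 323-fold higher (300 to 347), with 69.4% of its UMIs. Igf2 was at 10.7, 200-fold higher (133 to 305), with 61.5%. Mest was at 225 (70.2-fold) and Peg3 at 396 (11.5-fold), whereas Plagl1 at 45.5, Igf2r at 190 and Grb10 at 152 were 2.11-fold, 1.79-fold and 1.13-fold higher. Dlk1 and Meg3 were lower there, at 0.457 and 0.520 of the Pdgfra-positive level. The 5 skeletal muscle-gated cells of iWAT held H19 at 8013 (7270 to 8812), Peg3 at 320 (186 to 512) and Cdkn1c at 715 (506 to 981, 38 UMIs in 40.0% of the cells). Mest and Igf2 had 0 UMIs there, which allows up to 56.4 CPM by a floor of 3 counts and 69.4 by the exact Poisson limit. An Igf2 level of 10.7, as in iBAT, was thus not detectable in these cells.

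With these cells included, the library totals read differently. Over all kept cells, without gates, the log2 ratio of iBAT over iWAT was 2.02 for H19, against -0.28 in Pdgfra-positive cells, and 0.21 for Cdkn1c, against -1.61. In iBAT the 9 muscle markers other than Chrna1 summed to 3.21 CPM in Pdgfra-positive and 6.23 in immune-gated cells, where H19 was at 15.7 and 3.52. The part of muscle RNA in the stromal H19 level was not tested. Cdkn1c was at 1.43 (1.34 to 1.52) in Pdgfra-positive iBAT cells and at 1.36 (0.650 to 2.49) in immune-gated cells (10 UMIs), with overlapping intervals. Igf2 had 0 UMIs in immune-gated, Schwann-gated and ungated Pdgfra-negative iBAT cells, which allows up to 0.407, 0.205 and 0.0981 CPM by the floor of 3 counts, which lies below the exact Poisson limit.

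Mest was also high in endothelial-gated and Schwann-gated cells. It was at 66.8 CPM in 24 endothelial-gated iWAT cells (42.3 to 100, 23 UMIs) and at 74.2 in 222 of iBAT (67.1 to 81.7), 62.6-fold and 23.2-fold above Pdgfra-positive cells. In iWAT all 23 UMIs lay in 12.5% of the 24 cells, so that level rests on 3 cells, whereas 38.7% of the endothelial-gated iBAT cells held a Mest UMI. With a gate of 3 markers, which admits more cells, the values were 13.6 and 39.3, and with 5 markers 119 and 81.0. Schwann-gated cells were at 43.4 in iBAT and 7.48 in iWAT, and immune-gated cells at 0.678 and 0.444. Endothelial-gated iBAT cells were also higher in H19 (135, 8.59-fold), Peg3 (96.3, 2.80-fold) and Plagl1 (49.1, 2.28-fold), although with a gate of 3 markers H19 was at 75.1 and Peg3 at 64.0. The H19 level came from few cells, since 12.2% of endothelial-gated iBAT cells held an H19 UMI, against 14.3% of Pdgfra-positive cells (8.11% and 6.92% when thinned). In the 24 endothelial-gated iWAT cells H19 was at 11.6 from 4 UMIs, with an interval of 3.17 to 29.7.

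Meg3, Grb10 and Igf2r were spread broadly over lineages. Meg3 was at 96.2 in epithelial-gated iWAT cells (93.6 to 98.9), 0.296 of the Pdgfra-positive level, and at 117 in immune-gated ones. In iBAT it was at 80.4 in immune-gated (74.0 to 87.1) and 89.3 in endothelial-gated cells (81.6 to 97.6), whose intervals overlap. Grb10 was at 67.5 in immune-gated and 81.6 in epithelial-gated iWAT cells, and at 37.1 in immune-gated iBAT cells. With a gate of 3 markers the order of these classes turned: immune-gated cells were then at 121 for Grb10 in iWAT, above 86.7 in epithelial-gated cells, and at 138 for Meg3 in iBAT, above 130 in endothelial-gated cells. Meg3 in immune-gated iWAT cells was then at 205. Grb10 in immune-gated iBAT cells was then at 78.6. Igf2r lay between 71.1 and 195 in the lineage gates of 20 or more cells.

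**Figure D2:**
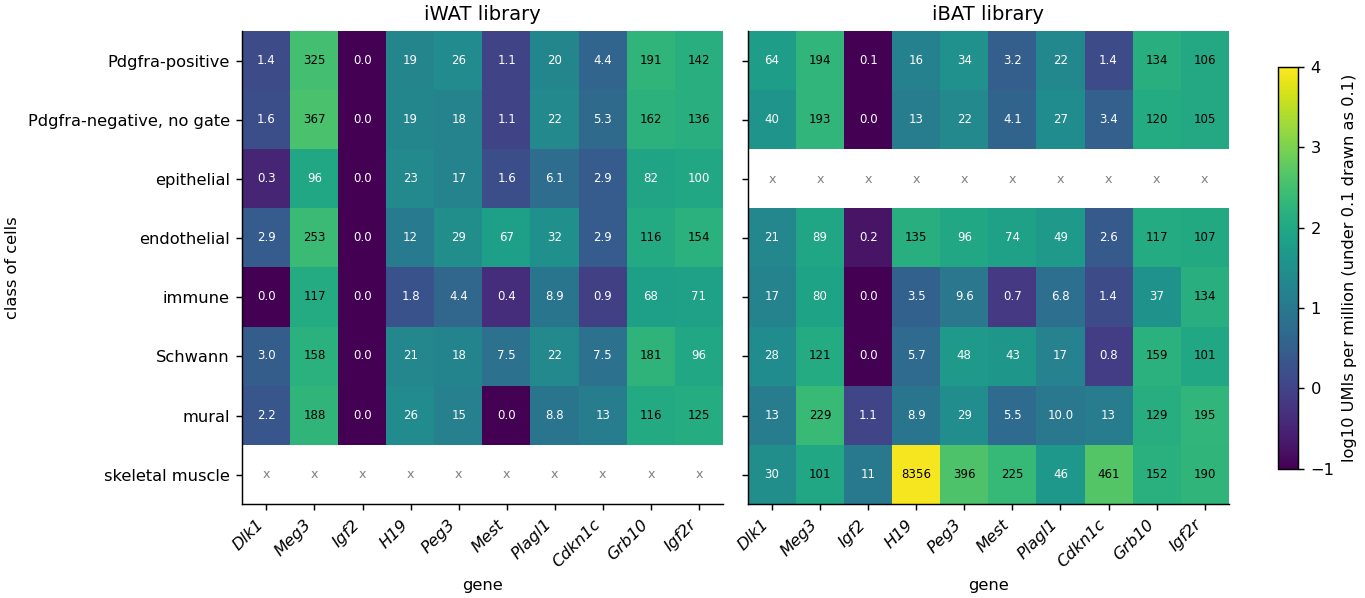
CPM of the 10 members (columns) in each class of cells (rows) of the iWAT and iBAT libraries, printed in each field and coloured on a log10 scale, with x for classes of under 20 cells. The skeletal muscle row of iBAT stands out for H19 (8356), Cdkn1c (461), Peg3 (396) and Mest (225), and Dlk1 is highest in the Pdgfra-positive row of iBAT.

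In 4 members, Mest, H19, Igf2 and Cdkn1c, another annotated gene overlaps the 3′ end, and whether the counting used strand is not given in the sources used here. Copg2 overlaps Mest from the other strand and was at 16.9 and 15.4 CPM in Pdgfra-positive cells of iWAT and iBAT, above Mest itself. In endothelial-gated iBAT cells Copg2 was at 20.6 and in skeletal muscle-gated cells at 32.2, against 74.2 and 225 for Mest. Gm33148, which overlaps the ends of both H19 and Igf2, was at 0.0190 and 0.0289 in Pdgfra-positive cells, and 4933417O13Rik at the end of Cdkn1c at 0.0348 and 0.0248. Gm49394 overlaps the end of Igf2 on the same strand and was not analysed here. The overlap of 4933417O13Rik with Cdkn1c is also on the same strand. The low values of Mest, Igf2 and Cdkn1c are uncertain for these reasons.

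Within Pdgfra-positive iBAT cells, Dlk1 was concentrated in a minority of cells. At 10000 UMIs per cell, 76.6% of cells had 0 Dlk1 UMIs and 1 cell had 65. The 1977 cells with 3 or more (7.83%, 7.50 to 8.17) held 71.5% of its UMIs. The variance of Dlk1 over its mean was 6.75, against 2.69 for Meg3, 1.61 for Grb10, 1.28 for Igf2r and 1.02 for Tbp, a housekeeping gene. In iWAT it was 1.12 for Dlk1, with 1 cell of 15159 at 3 or more, but the mean was 0.0148 UMIs per cell, against 0.685 in iBAT. The measure tends towards 1 at so low a mean, so the iWAT value does not show how concentrated Dlk1 was there. By the same measure H19 was at 27.1 in iWAT and 19.7 in iBAT, and the top 1% of cells held 43.6% and 58.1% of its UMIs.

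**Figure D3:**
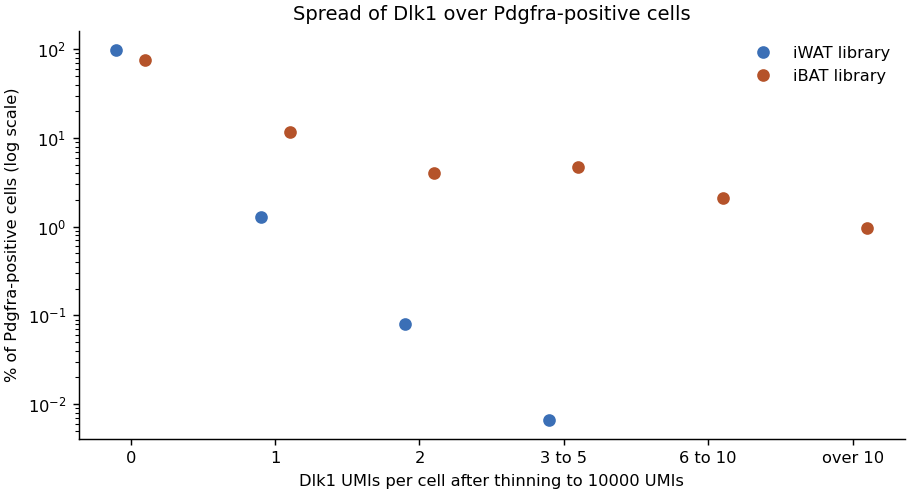
Percent of Pdgfra-positive cells (log axis) by number of Dlk1 UMIs per cell after thinning to 10000 UMIs, in the iWAT (blue, 15159 cells) and iBAT (brown, 25256 cells) libraries, with classes of 0 cells left out. In iBAT 0.978% of cells held over 10 Dlk1 UMIs, whereas the iWAT points end at 3 to 5.

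The correlations given next are Pearson coefficients of log2(UMIs + 1) across the thinned Pdgfra-positive cells of 1 library, which share that library and its pooled treatments, and they are descriptions without a test. In sparse counts a weak coefficient is no finding. In iBAT (25256 cells) the coefficient of Dlk1 was 0.23 with Rian and 0.17 with Meg3, the 3rd and 8th highest of 6492 genes, and 0.10 with Mirg and 0.06 with Dio3. It was 0.14 with Grb10, 0.11 with Plagl1 and 0.10 with H19, and between 0.00 and 0.05 with Peg3, Mest, Cdkn1c and Igf2r. The genes most like Dlk1 were Il1rl1 (0.26), Cd34 (0.24), Rian, Gas1 (0.21) and Crabp1 (0.19), and the lowest were the basement membrane collagen genes Col4a1 (-0.35) and Col4a2 (-0.31) and Tmem45a (-0.25). In iWAT the coefficients of Dlk1 with the members lay between -0.01 and 0.03, where the sparse counts leave little to see.

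With Mki67, the proliferation marker, the coefficient of Dlk1 in iBAT was 0.02, and with Adipoq, the adiponectin gene, it was -0.02. It was -0.02 with Pparg, -0.07 with Cebpa and -0.10 with Fabp4. In the thinned cells, Dlk1 was at 72.5 CPM in 10534 Mki67-positive iBAT cells and 65.6 in the others, 1.11-fold (1.07 to 1.14). Only 143 iBAT cells had an Adipoq UMI. They held Dlk1 at 23.1 against 68.7, 0.336 of the level in other cells (0.231 to 0.472), with H19 at 1.94-fold (1.42 to 2.59) and Cdkn1c at 3.28-fold (1.31 to 6.82). In iWAT only 12 cells had an Adipoq UMI.

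Meg3 and Rian went together in both libraries, at 0.47 in iWAT and 0.43 in iBAT, each the highest coefficient of Meg3. Malat1, a nuclear non-coding RNA, came next in both at 0.42 and 0.26. Meg3 was lower in cycling cells, with 273 CPM in Mki67-positive and 364 in Mki67-negative iWAT cells (0.750, 0.736 to 0.764) and 163 and 224 in iBAT (0.730, 0.716 to 0.743). H19, Peg3 and Plagl1 were higher in Mki67-positive cells of both libraries, by 1.48-fold, 1.25-fold and 1.14-fold in iWAT and 1.13-fold, 1.16-fold and 1.19-fold in iBAT. Grb10 was 1.17-fold and 1.03-fold higher, and Igf2r was lower at 0.923 and 0.938. Mest was at 0.933 (0.663 to 1.31) in iWAT and at 0.760 (0.659 to 0.876) in iBAT. Cdkn1c was at 1.06-fold (0.898 to 1.24) and 0.986-fold (0.799 to 1.21). Coefficients between 2 members other than Dlk1 did not exceed 0.10.

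**Figure D4:**
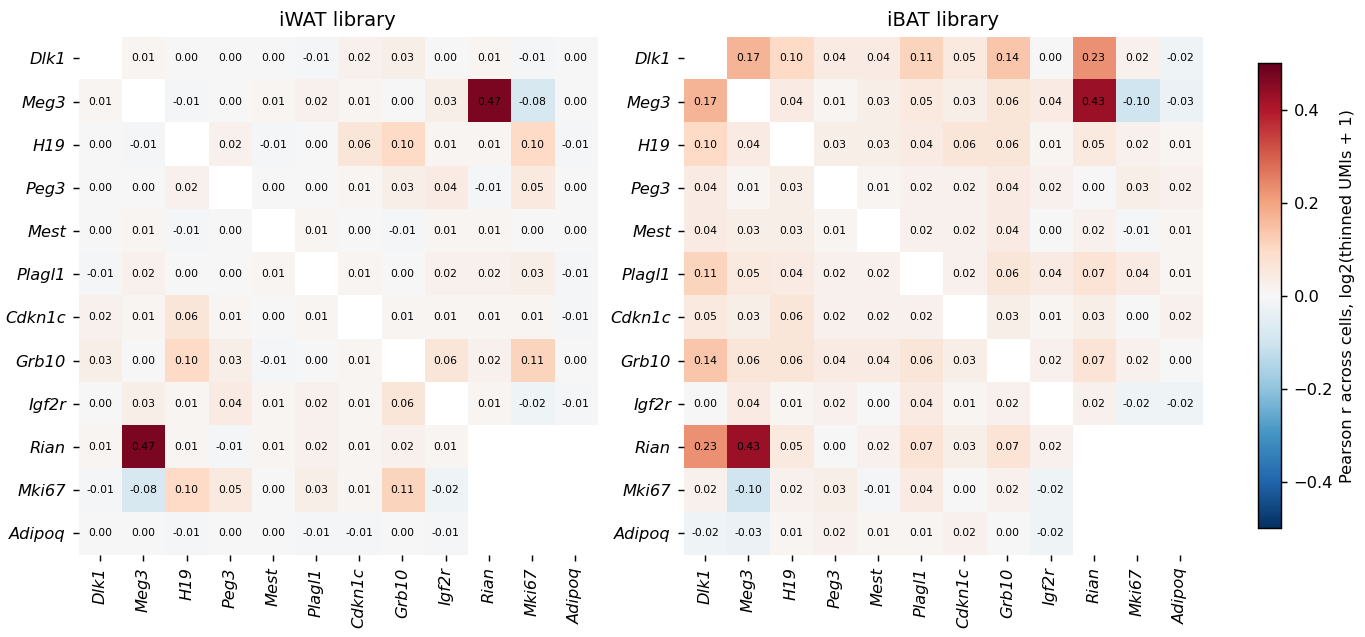
Pearson coefficients across Pdgfra-positive cells thinned to 10000 UMIs, for 9 members (Igf2 is left out for lack of UMIs), Rian, Mki67 and Adipoq, in iWAT (15159 cells) and iBAT (25256 cells), red for positive and blue for negative, with pairs not computed left blank. Meg3 with Rian is highest in both (0.47 and 0.43), and the Dlk1 row is coloured in iBAT only.

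Grouped by Dlk1, iBAT cells with 3 or more Dlk1 UMIs differed from cells with 0 in several other members. How the pooled treatments were shared between these sets of cells is unknown. Of the other 9 members, 4 were 2-fold or more higher and 0 were 2-fold or more lower, against 0.465% and 1.15% of the 8815 genes at 10 CPM or more in either set of cells. Of the 6 members past that floor, 2 were 2-fold or more higher, with a median log2 ratio of 0.72 against 0.03 over all these genes. These 2 were H19 and Plagl1, and the count was 1 where Plagl1, at 2.03-fold, came to 1.97 without muscle-marker cells, 1.99 with another thinning draw and 1.78 at 5000 UMIs with 2 or more Dlk1 UMIs. Mest was at 1.98 in the last of these. H19 was at 59.5 against 12.0 CPM, 4.95-fold (4.61 to 5.32). Cdkn1c (2.53-fold, 3.19 against 1.26 CPM, with immune-gated cells at 1.36), Mest (2.15-fold), Plagl1 (2.03-fold), Meg3 (1.76-fold, 1.71 to 1.81), Grb10 (1.54-fold) and Peg3 (1.46-fold) followed, and Igf2r was at 0.997 (0.953 to 1.04). Igf2 had 1 and 12 UMIs and gave no usable ratio. Rian, Mirg and Dio3 of the cluster were at 1.98-fold, 2.04-fold and 1.64-fold.

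Of the stromal state genes compared, Fabp4, the fatty acid-binding protein gene, was at 43.6 against 120 CPM (0.362, 0.338 to 0.388), Cebpa at 0.613 (0.574 to 0.654) and Pparg at 0.816 (0.744 to 0.893), both regulators of adipogenesis. Acta2, smooth muscle actin, was at 0.727, Mgp at 0.735 and Dpp4 at 0.606 (0.395 to 0.894). Sox9 was 1.44-fold higher (1.39 to 1.48), and Mki67 was at 1.04-fold (0.991 to 1.09). H19 kept a ratio of 5.20 without cells holding a UMI of a muscle marker other than Chrna1 and 4.72 without called doublets, but fell to 2.44 (2.20 to 2.71) once the few cells with more than 10 H19 UMIs were left out.

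**Figure D5:**
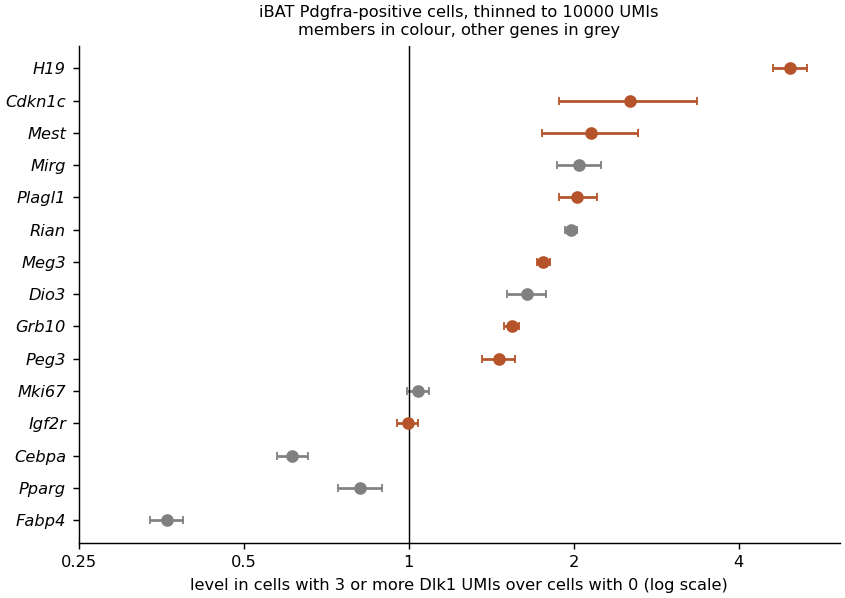
Level in Pdgfra-positive iBAT cells with 3 or more Dlk1 UMIs (1977 cells) over that in cells with 0 (19353 cells), both thinned to 10000 UMIs, on a log axis with 95% exact intervals, members in brown and other genes in grey. H19 lies farthest right at 4.95, Igf2r (0.997) and Mki67 (1.04) lie near an equal level, and Fabp4 lies farthest left at 0.362.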

How the data were processed

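Whole-transcriptome single-cell libraries (BD Rhapsody) were analysed from the deposited matrices of raw UMI counts per gene and cell, which the authors made with a cloud alignment pipeline. Per the labels, build mm39 and Seurat 5.0.0 were used. Aligner version, annotation, strand and multimapper settings are not given in the sources used here. Cells with more than 200 and fewer than 7500 genes and under 30% mitochondrial UMIs were kept, in total 99.3% (iWAT) and 98.5% (iBAT), and 8 cell index numbers occurred in both libraries.

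A cell was gated to a lineage when 4 or more of its markers had a UMI, a number set after seeing how marker counts were spread. Cells in more than 1 gate were set apart. Levels are summed UMIs per 1000000 (CPM), and genes at 10 CPM or more in either library were compared, 2-fold counting as a difference. Correlations used log2(UMIs + 1) after thinning to 10000 UMIs per cell, which removed 1683 Pdgfra-positive iWAT cells and 0 of iBAT. Doublets were called with Scrublet in scanpy 1.11.5 (1.87% and 2.81%) and kept. Named besides the members are all list genes 2-fold apart, the 10 highest of each list, and the 5 highest and 3 lowest coefficients of each member at 5 or more CPM among genes at 20 or more. Scripts (Python 3.11.15, scipy 1.17.1) were tested on simulated data. Members and lists were chosen with earlier results of these data known.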

Additional observations from a re-analysis of the deposited data

Results flagged for a closer look

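Levels of each member in 5 classes against Pdgfra-positive cells (50 pairs) were set side by side between the libraries. So were levels of the members, Mki67 and Adipoq in cells split by Mki67, Adipoq or Dlk1 (33 pairs). Of all these pairs, 2 pointed in opposite directions with both intervals off an equal level. Igf2r was at 0.502 of the Pdgfra-positive level in immune-gated iWAT cells (0.427 to 0.586, 160 UMIs in 169 cells) and at 1.26 in immune-gated iBAT cells (1.19 to 1.35, 991 UMIs in 279 cells). With a gate of 3 markers the iWAT level of Igf2r moved from 71.1 to 109 CPM. Meg3 was at 0.580 in mural-gated iWAT cells (0.464 to 0.716, 86 UMIs in 33 cells) and at 1.18 in mural-gated iBAT cells (1.02 to 1.35, 206 UMIs in 35 cells). All these intervals cover counting error only and leave out the spread between cells. For Meg3 in iBAT the lower end of 1.02 is close to an equal level, so this flag is weak. The difference between the libraries was not tested, since each is 1 library.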

How the results depend on the processing

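The log2 ratio of Dlk1 stayed between 5.47 and 5.59 under every alternative run (cell filter, Pdgfra threshold, no gates, thinning, mean over cells, TMM and median-of-ratios scaling, doublets out, gate size), and both scalings shifted all ratios by -0.03. Without gates, 4 members instead of 3 were 2-fold or more higher in iBAT and 0 instead of 1 in iWAT, as the log2 ratio of H19 went from -0.28 to 2.02 and that of Cdkn1c from -1.61 to 0.21. Without a floor, 2951 genes were 2-fold or more higher in iBAT and 3783 in iWAT, instead of 333 and 387, and with a floor of 50 there were 133 and 151. The coefficient of Dlk1 with Meg3 in iBAT was 0.12 at 5000 UMIs per cell, 0.22 without thinning and 0.16 as Spearman's rho, against 0.17, and that with Mki67 was 0.04 without thinning, against 0.02. The coefficient with Adipoq moved by at most 0.01. Of all recomputed correlations, 852 stayed within their interval across cells and 139 left it. Of the members' log2 ratios between depots, 66 stayed within their counting interval, 33 left it (H19 among them, with a change of sign without gates) and 1 that was 2-fold or more apart (Cdkn1c) changed sign. Of the class levels, 225 stayed and 75 moved, and of the Dlk1-high ratios 27 stayed and 6 moved. The last 2 sets were chosen after seeing the data. In iWAT, Dlk1 rests on 449 UMIs. No paired analysis was possible because each depot has 1 library.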

Other observations

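Members above 5 CPM (UMIs per 1000000) had their own neighbours across Pdgfra-positive cells, given as Pearson coefficients at 10000 UMIs per cell without a test. Grb10 went with Nedd4, the ubiquitin ligase gene known to encode a Grb10 partner, at 0.21 in iWAT (the highest of 6401 genes) and 0.16 in iBAT (the 4th of 6492), and was lowest with Timp1 in both, at -0.30 and -0.24. Its further genes were Prrx1, Hif1a, Abi1 and Hnrnpu at the high end and S100a6 and Cxcl14 at the low end in iWAT, and Il6st, Nfix, Cxcl12 and Dlk1 at the high end and Prdx1 and Col15a1 at the low end in iBAT. Igf2r went with Nid1, a basement membrane gene, first in both libraries at 0.15 and 0.13, and with Lrp1 and Fbn1 in both. The others at its high end were Fbln2 and Itgb1 in iWAT and mt-Nd4 and Rrbp1 in iBAT, and at its low end Tmsb10 (-0.17), Rplp1 and Rps12 in iWAT and Rps12, Ppia and Txn1 in iBAT, each at -0.11 there.

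The genes highest with H19 in iWAT were Egln3 (0.13), Bnip3, Ndufa4l2, Ptx3 and Apln (0.11), of which Egln3, Bnip3 and Ndufa4l2 are known hypoxia-induced genes, and in iBAT they were Marcks, Gas1, Gpx3, Gas6 and Dlk1, each at 0.10. Timp1 was lowest in both, at -0.13 and -0.10, followed by Cryab and Ccn2 in iWAT and Esd and Nap1l1 in iBAT. Plagl1 was highest with Cspg4 (0.10), Nes, Aldh1a3, Timp3 and Jag1 and lowest with Bnip3 (-0.11), Ldha and Bsg in iWAT. In iBAT it was highest with Dlk1 (0.11), Postn, Marcks, Aspn and Col8a1 and lowest with Tmem45a (-0.11), Sdc4 and Cryab. Peg3 was highest with Thbd (0.12), Il1rl1, Gsto1, Tm4sf1 and Mcpt8 and lowest with Mfap5 (-0.13), Igfbp7 and Rpl34 in iWAT. In iBAT it was highest with Npr3 (0.09), F3, Nfib, Hhip and Lpp and lowest with Fn1 (-0.09), Lgals3 and Serpinb6a. After Rian and Malat1, Meg3 was highest with the collagen genes Col1a1 (0.28), Col1a2 and Col5a2 in iWAT and with Col1a1 (0.20), Fn1 and Lox in iBAT, and lowest with Ptma (-0.31), Eif5a and Hsp90ab1 in iWAT and Nap1l1 (-0.26), Ran and H2az1 in iBAT. Apart from those of Meg3 and of Grb10 with Timp1, these coefficients are 0.21 or less in size, and they are given as values only.

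In iBAT, 52 cells without another gate carried 4 or more adipocyte markers. They held Dlk1 at 11.5 CPM (6.67 to 18.3), Meg3 at 43.1 (33.2 to 55.0), Igf2r at 46.5 (36.2 to 58.8) and Peg3 at 84.9 (70.7 to 101), against 64.5, 194, 106 and 34.4 in Pdgfra-positive cells. H19 was at 2.02 (0.417 to 5.91, 3 UMIs) and Cdkn1c at 6.06 (2.77 to 11.5, 9 UMIs), against 15.7 and 1.43. The direction of H19 was opposite to that in the 143 cells with an Adipoq UMI, where it was 1.94-fold higher. Of the 52 cells, 34 are themselves among the Pdgfra-positive cells.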
